A study of Mus musculus with 24 samples.

Results

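VIP neurons were compared with EXC neurons in bulk RNA-seq of fluorescently sorted cells from adult mouse cortex. The comparison takes every library that the labels place in either subtype, 6 VIP and 6 EXC libraries, which is 12 of the 24 in the series; the remaining libraries, 6 PV and 6 SST, served to estimate the spread and for 1 further contrast. The labels do not spell the subtype names out. Here they are read through Vip, the gene of vasoactive intestinal peptide, and Slc17a7, the gene of VGLUT1, a transporter that loads glutamate into vesicles. Per the labels, tissue was digested with papain, cells that excluded DAPI and were positive for GFP or tdTomato were sorted from reporter mice, purity was checked by TaqMan assay and RNA by BioAnalyzer. The reporter lines, the drivers of the reporters, the age beyond adult and the number of animals behind a library are not stated in the labels. The VIP libraries came from 2 male and 4 female samples. The EXC libraries came from 4 male and 2 female samples. VIP replicates 1 and 3 belonged to the pool named POOL7098 and VIP replicates 2, 4, 5 and 6 to POOL7099. EXC replicate 3 was also in POOL7099, and the other 5 EXC libraries were in POOL6188. For those 5 EXC libraries the pool and the subtype cannot be told apart. The PV libraries came from 3 male and 3 female samples, and all 6 were in POOL6188. The SST libraries came from 4 male and 2 female samples, with 5 in POOL7098 and 1 in POOL7100. No PV library thus shared a pool with a VIP library. Whether 2 libraries of a subtype come from different animals is not stated, and the p-values therefore reflect the spread among these libraries alone, which may be technical.

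VIP cells are a class of cortical interneurons that release GABA, arise in the caudal ganglionic eminence and place many of their contacts on other interneurons, which lifts inhibition from nearby pyramidal cells. They carry fast receptors for acetylcholine and serotonin, and the VIP peptide itself acts through G protein coupled receptors that raise cyclic AMP. Excitatory cortical neurons arise in the pallium, release glutamate from vesicles filled by VGLUT1 and receive most of their excitatory input on dendritic spines.

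Values per library are in CPM, read counts relative to the library's total after TMM scaling between libraries, given as the lowest, the highest and the median of the 6 libraries. A difference is the log2 fold change of VIP over EXC ± its standard error (SE), with the adjusted p of edgeR's quasi-likelihood test, and a gene is called when that p is under 0.05. Ratios of summed reads carry a 95% interval that covers counting error only. Total counts were 4528457 to 7755954 reads in VIP libraries and 4370732 to 8504337 in EXC libraries. At 10 CPM this is 43.7 to 85.0 reads, for a counting error of 15.1% to 10.8%. EXC replicate 3 stood apart from the other EXC libraries. Across 11859 genes its correlation with them was 0.797 to 0.84, whereas theirs with one another was 0.896 to 0.973, and VIP with EXC libraries gave 0.701 to 0.811; these are descriptions across genes, which are not independent. It is also the only EXC library that shares a pool with VIP, so its values are given beside the results that rest on them.

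Vip (NCBI Gene 22353, GRCm38 chr10:5639193-5647617) had 1634 to 1776 CPM (median 1734) in VIP libraries, against 0.108 to 5.29 CPM (median 0.492) in EXC libraries. All 6 VIP libraries lay within a narrow band and none of the EXC libraries came near it. The ratio of summed reads of VIP over EXC was 1323 (1019 to 1752), and the difference was 10.34 ± 0.57 with adjusted p = 8.77e-14. Among the EXC libraries, replicate 3 had 5.29 CPM and replicate 4 had 2.998 CPM. Slc17a7 (NCBI Gene 72961, chr7:45163921-45176139) had 0.719 to 24.1 CPM (median 4.90) in VIP libraries, against 162 to 820.5 CPM (median 567) in EXC libraries. The groups did not overlap, at -6.16 ± 0.57 and adjusted p = 1.38e-09. Its highest VIP value was in replicate 5 and its lowest EXC value, 162 CPM, was in replicate 3. Both labels thus matched their marker in every library.

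The promoters of 4 identity genes are shown, to give the sequence just upstream of a marker gene and 1 other gene of each group: Vip and Tac2, higher in VIP, and Slc17a7 and Neurod2, lower in VIP. Each is the 250 bases before the start in the RefSeq promoter table on build GRCm38.p6 (for Vip that start lies inside the gene interval given above), written 5′ to 3′ on the gene's strand, with matches to the half-site TGACG or its reverse complement CGTCA in capitals. This half-site is the core of the cyclic AMP response element, the binding motif of CREB.
Vip, chr10:5638968-5639217, plus strand: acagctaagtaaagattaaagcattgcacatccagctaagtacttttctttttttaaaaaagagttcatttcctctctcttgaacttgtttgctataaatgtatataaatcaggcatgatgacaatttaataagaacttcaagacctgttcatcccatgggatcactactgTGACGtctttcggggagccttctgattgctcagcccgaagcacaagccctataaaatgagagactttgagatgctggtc
Tac2, chr10:127724228-127724477, plus strand: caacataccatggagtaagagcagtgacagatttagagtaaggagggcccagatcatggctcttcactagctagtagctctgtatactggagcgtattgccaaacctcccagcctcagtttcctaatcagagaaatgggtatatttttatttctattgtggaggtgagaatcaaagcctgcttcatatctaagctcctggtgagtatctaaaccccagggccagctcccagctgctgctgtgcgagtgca
Slc17a7, chr7:45163671-45163920, plus strand: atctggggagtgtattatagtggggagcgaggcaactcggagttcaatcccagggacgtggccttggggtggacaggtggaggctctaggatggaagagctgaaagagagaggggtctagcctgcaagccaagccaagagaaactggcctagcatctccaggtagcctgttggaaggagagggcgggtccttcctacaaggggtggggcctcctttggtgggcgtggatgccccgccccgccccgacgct
Neurod2, chr11:98329646-98329895, minus strand: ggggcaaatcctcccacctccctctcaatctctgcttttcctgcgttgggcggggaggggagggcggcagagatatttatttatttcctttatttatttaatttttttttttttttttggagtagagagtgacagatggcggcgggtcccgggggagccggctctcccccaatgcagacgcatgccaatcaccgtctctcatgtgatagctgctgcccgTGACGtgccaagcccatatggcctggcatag
The Vip window held 1 half-site that ends 74 bases before the start, and the Neurod2 window held 1 that ends 26 bases before it. Those of Tac2 and Slc17a7 held none. The half-site was found on either strand in 5836 of the 32851 RefSeq windows of this length that were searched (17.8%). That set leaves out 1 chromosome. The full element TGACGTCA, which contains the half-site on both strands, was in 508 windows (1.55%) and the homeodomain core TAATTA in 1590 (4.84%), and neither was in these 4. The GC share was 38.4% for Vip, 47.2% for Tac2, 52.8% for Neurod2 and 61.2% for Slc17a7. A match of letters is a description and not evidence of binding.

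Of 14890 genes tested, 2735 were called higher in VIP (18.4%) and 3086 lower (20.7%), 39.1% in all. The median log2 fold change over all genes was 0.007, and 832 called genes were at least 4-fold higher and 924 at least 4-fold lower. In 2590 genes (17.4%) the VIP and EXC libraries did not overlap. Without EXC replicate 3 the counts were 3888 higher and 3403 lower, and 5686 of the 5821 calls (97.7%) were kept with the same direction. In the gene lists described here, no count of higher or lower calls moved by more than 1 without it, other than that of oligodendrocyte markers, of which 8 of 8 tested were then lower. The counts moved more with the pool as a covariate. In that fit an effect of the pool cannot be told apart from the deviation of EXC replicate 3 described above. With the pool as a covariate, 24.9% of genes were called, 2006 higher and 1708 lower, and 2113 of the 5821 calls (36.3%) were kept with their direction. That fit rests on EXC replicate 3, as does the fit of the 5 libraries of POOL7099 alone, which called 21.9% of 16306 genes. For this reason the counts of the gene lists below are followed by those under the pool covariate. They are to be read beside the shares over all genes tested, 39.1% called without the pool and 24.9% with it.

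**Figure D1:**
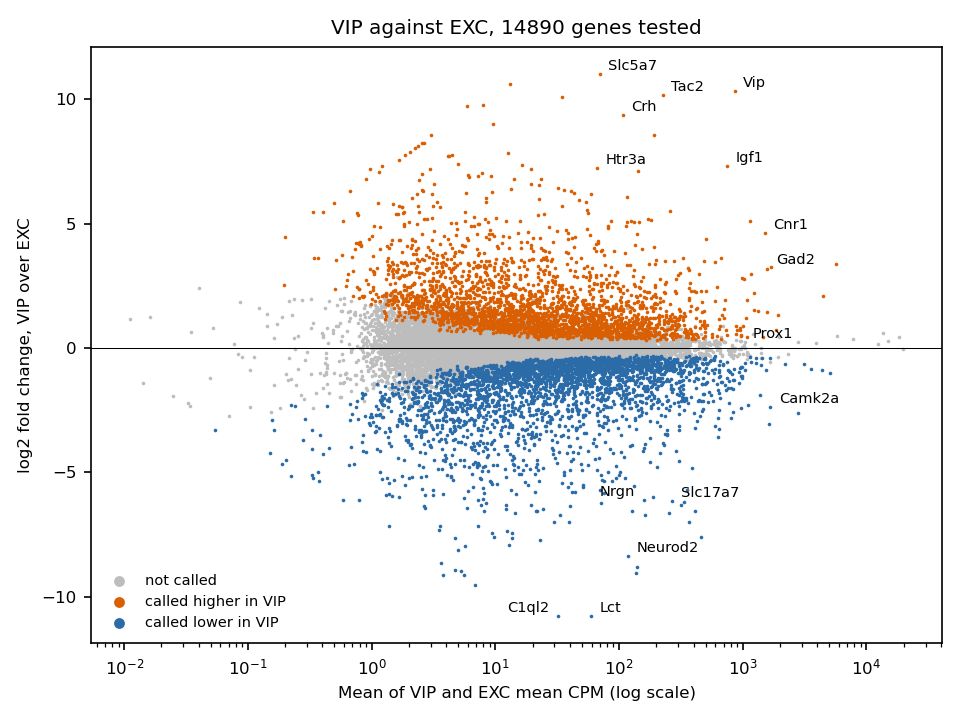
Log2 fold change of VIP over EXC (y axis) against the mean of the VIP and EXC mean CPM (x axis, log scale) for the 14890 genes tested. Genes called higher in VIP are orange, genes called lower are blue and the rest are grey, with the genes the text leads with labelled: Vip, Tac2 and Slc5a7 stand at the top, and C1ql2, Lct and Neurod2 at the bottom.

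The genes with the largest positive change included those of peptides, their receptors and the acetylcholine pathway. Tac2, the precursor of neurokinin B, had 279 to 624 CPM (median 459) in VIP libraries, against 0 to 0.883 CPM (median 0.279) in EXC libraries. Crh, corticotropin-releasing hormone, had 184 to 255 CPM (median 215) in VIP libraries, against 0 to 1.06 CPM (median 0.281) in EXC libraries. Neither gene overlapped between the groups, and reads in VIP exceeded those in EXC 1369 (816 to 2505) times for Tac2 and 713 (417 to 1340.0) times for Crh. Pthlh, parathyroid hormone-like peptide, had 52.3 to 85.97 CPM (median 69.3) in VIP libraries and a median of 0 in EXC libraries, with 2766 reads in VIP and 2 in EXC, a ratio of 1505 (416 to 12440.0). Igf1, insulin-like growth factor 1, had 1056 to 2002 CPM (median 1429) in VIP libraries, against 6.94 to 13.96 CPM (median 8.52) in EXC libraries, a difference of 7.31 ± 0.32. Rag1, known for V(D)J recombination in lymphocytes, had 7.25 to 15.97 CPM (median 12.5) in VIP libraries, against 0 to 0.217 CPM (median 0) in EXC libraries, a ratio of 178 (60.6 to 867). Low as it is, Rag1 was above every EXC library in each VIP library, which the rule for naming it required. Sycp1, a protein of the synaptonemal complex of meiosis, had 2.76 to 32.05 CPM (median 6.24) in VIP libraries and 0 reads in all EXC libraries together, so that it was at least 165-fold higher on a floor of 3 counts over the group. Mybpc1, a myosin-binding protein of muscle that also names a VIP cell type, had 24.5 to 60.4 CPM (median 37.2) in VIP libraries, against 0 to 2.02 CPM (median 0.0652) in EXC libraries.

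At the other end, the genes with the largest negative change included several that are best known from granule cells of the dentate gyrus. Lct, lactase, had 0 to 0.194 CPM (median 0) in VIP libraries, against 34.9 to 192 CPM (median 128) in EXC libraries. C1ql2, a secreted C1q-like synaptic organiser, had 0 to 0.184 CPM (median 0) in VIP libraries, against 37.4 to 82.1 CPM (median 66.5) in EXC libraries. Every EXC library was far above every VIP library for both genes. The EXC-to-VIP ratio of summed reads was 2529 (699.9 to 20890.0) for Lct, with 2 reads in VIP, and 2569 (461 to 101500.0) for C1ql2, with 1 read in VIP. Dsp, the desmosome protein desmoplakin, had 0 to 1.999 CPM (median 0.368) in VIP libraries, against 160.1 to 349 CPM (median 290.3) in EXC libraries (log2 fold change -9.04 ± 0.54 SE, adjusted p = 3.67e-13). Iqgap2, a scaffold of the actin cytoskeleton, had 0.377 to 0.92 CPM (median 0.651) in VIP libraries, against 246 to 307 CPM (median 280.1) in EXC libraries (log2 fold change -8.78 ± 0.19 SE, adjusted p = 3.12e-22). Neurod2, a transcription factor of glutamatergic differentiation, had 0 to 1.84 CPM (median 0.745) in VIP libraries, against 163 to 292 CPM (median 255) in EXC libraries (log2 fold change -8.37 ± 0.48 SE, adjusted p = 1.66e-13). Robo3, a receptor of the Robo guidance family, had 0 reads in VIP and 3.83 to 29.6 CPM (median 6.75) in EXC libraries. It was thus at least 118-fold lower in VIP on the floor of 3 counts over the group. Kcng1, a modifying potassium channel subunit, differed by -7.71 ± 0.48 and Nptx1, neuronal pentraxin 1, by -7.59 ± 0.45.

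**Figure D2:**
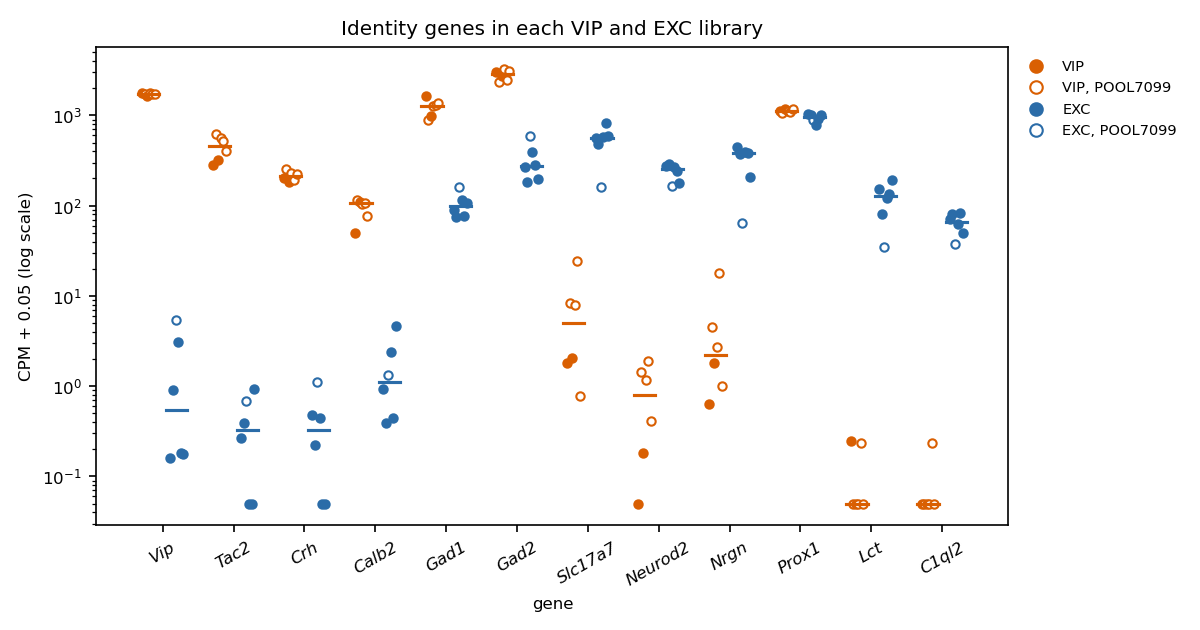
CPM per library (log axis, with 0.05 added so that zeros show) of 12 identity genes, VIP libraries in orange left of EXC libraries in blue, with a bar at each group's median and the POOL7099 libraries as open symbols. Vip, Tac2, Gad1 and Gad2 are higher in every VIP library, Slc17a7, Neurod2, Lct and C1ql2 in every EXC library, and the medians of Prox1 are 1128 CPM in VIP and 965 CPM in EXC.

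Genes that mark VIP cells were higher nearly throughout. Of 10 peptides and markers of VIP cells, 9 were called higher and 0 lower, with a median log2 fold change of 6.52 against 0.007 for all genes (pool covariate: 10 higher and 0 lower). Calb2, calretinin, had 50.1 to 115 CPM (median 106) in VIP libraries, against 0.341 to 4.54 CPM (median 1.07) in EXC libraries. Cxcl14, a chemokine, had 183 to 397 CPM (median 283) in VIP libraries, against 0.397 to 5.93 CPM (median 1.39) in EXC libraries. In both, the lowest VIP library was above the highest EXC library, at 5.95 ± 0.43 and 7.09 ± 0.42. Cnr1, the cannabinoid receptor CB1, had 2075 to 3603 CPM (median 3030.0) in VIP libraries, against 88.5 to 169 CPM (median 112) in EXC libraries (log2 fold change 4.61 ± 0.21 SE, adjusted p = 3.36e-15). Synpr, synaptoporin of synaptic vesicles, had 1669 to 4280.0 CPM (median 3032) in VIP libraries, against 176 to 464 CPM (median 312) in EXC libraries (log2 fold change 3.25 ± 0.28 SE, adjusted p = 4.67e-10). Cck, cholecystokinin, was the 1 gene of the list without a call, with 127 to 444 CPM (median 251) in VIP libraries, against 94.1 to 316 CPM (median 274) in EXC libraries. The groups overlapped, at 0.15 ± 0.29 and adjusted p = 0.727, while the pool covariate gave 1.79 (adjusted p = 0.00485). In VIP against the mean of PV and SST, where 46.3% of all genes were called, all 10 genes of the list were called higher, Cck among them at 2.14 ± 0.25 (adjusted p = 9.97e-08).

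The list of genes that name VIP cell types in single-cell atlases was more mixed. Of its 28 tested genes, 16 were called higher, 5 lower and 7 neither, with a median of 1.34 (pool covariate: 13 higher and 4 lower). Crispld2, a secreted protein, had 20.3 to 45.6 CPM (median 26.2) in VIP libraries, against 0 to 2.14 CPM (median 0.7) in EXC libraries (log2 fold change 5.12 ± 0.52 SE, adjusted p = 7.23e-09). Rspo4, an R-spondin that augments Wnt signalling, had 2.88 to 7.05 CPM (median 4.07) and 170 reads in VIP libraries, and 0 reads in EXC libraries, at least 61.7-fold higher on the floor of 3 counts over the group. Col15a1, a collagen, had 13.2 to 35.5 CPM (median 16.9) in VIP libraries, against 0 to 4.54 CPM (median 0.63) in EXC libraries (log2 fold change 4.0 ± 0.67 SE, adjusted p = 2.35e-05). Each of these was above all EXC libraries in all 6 VIP libraries, and the pool covariate ended the call of Col15a1 (adjusted p = 0.0601). Pde1a, a calmodulin-dependent phosphodiesterase, went the other way with 15.1 to 42.1 CPM (median 24.6) in VIP libraries, against 162 to 488 CPM (median 346) in EXC libraries (log2 fold change -3.63 ± 0.34 SE, adjusted p = 1.71e-09). Pkp2, a plakophilin of desmosomes, was lower at -1.52 ± 0.30, and Lmo1, a LIM-only transcription regulator, at -2.35 ± 0.60 (pool covariate, adjusted p = 0.274).

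All 13 genes of GABA synthesis, transport and GABA neuron identity were called higher in VIP, with a median of 3.63, and 12 of them remained called higher with the pool as a covariate. Gad1, glutamate decarboxylase 67, had 895 to 1630.0 CPM (median 1284) in VIP libraries, against 74.7 to 160.5 CPM (median 98.8) in EXC libraries (log2 fold change 3.63 ± 0.21 SE, adjusted p = 2.06e-13). Gad2, glutamate decarboxylase 65, had 2336 to 3290.0 CPM (median 2885) in VIP libraries, against 184 to 598 CPM (median 275) in EXC libraries (log2 fold change 3.19 ± 0.23 SE, adjusted p = 1.39e-11). Neither overlapped between the groups, and the highest EXC value of each was in EXC replicate 3. Slc32a1, the vesicular GABA transporter, differed by 3.35 ± 0.33. Dlx1 and Dlx2, homeodomain factors of the ganglionic eminences, differed by 5.15 ± 0.27 and 6.53 ± 0.41. Erbb4, the neuregulin receptor of cortical interneurons, had 1557 to 2777 CPM (median 2206) in VIP libraries, against 38.7 to 116 CPM (median 57.3) in EXC libraries (log2 fold change 5.11 ± 0.27 SE, adjusted p = 4.10e-14). The authors' length-normalised values allow levels to be set beside each other: VIP libraries averaged 675 ± 34.7 nRPKM of Vip, 307 ± 88.1 of Tac2, 307 ± 44.7 of Gad2, 209 ± 47.7 of Cnr1, 179 ± 44.1 of Gad1, 177 ± 25.7 of Penk and 165 ± 78.3 of Cck (SD, 6 libraries). Vip led this order by more than the spread of the others. Tac2 and Gad2 differed by less than their SDs, as did Gad1, Penk and Cck.

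Of the 7 regulators of the caudal ganglionic eminence lineage, 6 were called higher (pool covariate: 5 higher and 0 lower), and all 7 were higher than in the mean of PV and SST. Adarb2, an RNA-binding protein that marks this lineage, had 687 to 1348 CPM (median 893) in VIP libraries, against 34.02 to 103 CPM (median 39.7) in EXC libraries (log2 fold change 4.38 ± 0.30 SE, adjusted p = 4.50e-12). Sp8 and Npas1, transcription factors of the lineage, differed by 6.43 ± 0.47 and 6.38 ± 0.54. Nr2f2, the nuclear receptor COUP-TFII, had 165 to 299.5 CPM (median 227) in VIP libraries, against 15.4 to 60.6 CPM (median 25.3) in EXC libraries (log2 fold change 3.14 ± 0.35 SE, adjusted p = 5.23e-08). Prox1, a homeodomain factor of caudal eminence interneurons and also of dentate granule cells, had 1077 to 1171 CPM (median 1128) in VIP libraries, against 776 to 1040.0 CPM (median 965) in EXC libraries. The libraries did not overlap, yet the difference was 0.22 ± 0.20 with adjusted p = 0.415. Against the mean of PV and SST it was 7.0 ± 0.20 (adjusted p = 1.02e-19), with 8.41 ± 3.65 CPM in PV and 9.26 ± 3.27 in SST libraries (mean ± SD, 6 libraries each). Of 6 regulators of the medial ganglionic eminence lineage, 1 was called higher and 2 lower (pool covariate: 1 higher and 2 lower). The one called higher was Maf, a bZIP factor, with 125 to 214 CPM (median 163) in VIP libraries, against 2.78 to 8.68 CPM (median 4.33) in EXC libraries. It was also higher than the mean of PV and SST (1.08 ± 0.22). Lhx6, the factor that defines that lineage, had 0.196 to 1.84 CPM (median 0.592) in VIP libraries and 0.132 to 3.15 CPM (median 1.17) in EXC libraries, and differed from the mean of PV and SST by -7.80 ± 0.42. It was not called against EXC (-1.08, adjusted p = 0.0887), and was called lower without VIP replicate 5, EXC replicate 3 or EXC replicate 5 (adjusted p = 0.0182, 0.0459 and 0.0249).

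Markers of the other interneuron classes were called in both directions. Of 7 PV markers, 3 were higher and 2 lower (pool covariate: 3 higher and 0 lower). Their summed level was 62.3 to 99.4 CPM in VIP libraries and 4.65 to 16.3 CPM in EXC libraries, most of the VIP level being Pthlh, described above. Cox6a2, a subunit of cytochrome c oxidase, and Kcns3, a modifying potassium channel subunit, were the others called higher (2.92 ± 0.57 and 1.40 ± 0.43; pool covariate, adjusted p = 0.0188 and 0.0971), and Pvalb and Tac1, the tachykinin 1 precursor (-2.19 ± 0.46; pool covariate, adjusted p = 0.326), were called lower. Of 8 SST markers, 2 were higher and 2 lower (pool covariate: 2 higher and 1 lower), with a summed level of 483 to 658 CPM in VIP libraries and 157 to 346 CPM in EXC libraries. Those lower were Sst and Nos1, neuronal nitric oxide synthase (-0.83 ± 0.23; pool covariate, adjusted p = 0.935). Pvalb, parvalbumin, had 0.12 to 0.92 CPM (median 0.195) and Sst, somatostatin, 0.12 to 17.7 CPM (median 2.73) in VIP libraries, against 0.542 to 2.91 CPM (median 1.12) and 7.27 to 72.9 CPM (median 17.1) in EXC libraries. Both were called lower, and the pool covariate removed both calls (adjusted p = 0.219 and 0.502). Elfn1, an adhesion protein that shapes the synapses which interneurons receive, was higher with 146 to 306 CPM (median 205) in VIP libraries, against 1.90 to 13.2 CPM (median 6.49) in EXC libraries (log2 fold change 4.90 ± 0.36 SE, adjusted p = 2.46e-11). Cbln4, a secreted cerebellin, had 100.5 to 231 CPM (median 167) in VIP libraries, against 4.04 to 36.4 CPM (median 6.39) in EXC libraries (log2 fold change 3.88 ± 0.46 SE, adjusted p = 1.03e-07). Both stand on the list of SST markers, and both were also higher than the mean of PV and SST (2.14 ± 0.26 and 2.90 ± 0.36). Of 6 markers of LAMP5 and neurogliaform cells, 4 were lower (pool covariate: 0 higher and 3 lower), among them Sv2c, a vesicle protein, with 2.74 to 7.04 CPM (median 4.07) in VIP libraries, against 63.7 to 105 CPM (median 93.3) in EXC libraries (log2 fold change -4.21 ± 0.27 SE, adjusted p = 1.28e-12), and Lamp5 at -3.89 ± 0.52. Reln, reelin, was the 1 called higher, at 0.83 ± 0.20, and lost its call with the pool covariate (adjusted p = 0.225).

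Glutamatergic markers were lower in VIP with 1 exception. Of 12 tested, 11 were lower, with a median of -5.36, and with the pool as a covariate 11 were lower and 0 higher, with a median of -3.58. Neurod1, a bHLH factor of granule cells and developing glutamatergic neurons, had 0 to 1.47 CPM (median 0.51) in VIP libraries, against 37.4 to 60.9 CPM (median 46.8) in EXC libraries (log2 fold change -6.45 ± 0.51 SE, adjusted p = 7.77e-11). Neurod6, its relative in pyramidal cells, had 0.12 to 6.07 CPM (median 0.683) in VIP libraries, against 27.4 to 165 CPM (median 85.5) in EXC libraries (log2 fold change -5.79 ± 0.66 SE, adjusted p = 6.52e-08). Tbr1, a factor of deep projection neurons, differed by -4.42 ± 0.40. Sv2b, the vesicle protein of glutamatergic terminals, had 1.68 to 22.3 CPM (median 7.44) in VIP libraries, against 146 to 1174 CPM (median 657) in EXC libraries. Its lowest EXC value, 146 CPM, was in EXC replicate 3, and the difference was -6.19 ± 0.56 (pool covariate -3.45). Slc30a3, which loads zinc into vesicles, differed by -3.62 ± 0.25. Mef2c, an activity-linked factor of many neurons, had 657 to 976 CPM (median 888) in VIP libraries, against 505 to 914 CPM (median 834) in EXC libraries, with overlapping groups and adjusted p = 0.72. Emx1, a factor of the dorsal telencephalon, had 0 reads in VIP and 78 in EXC libraries and was below the filter on low counts.

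Cortical layer markers were lower in VIP for 12 of 17 genes and higher for 2 (pool covariate: 3 higher and 8 lower). Bcl11b, the zinc finger factor CTIP2, had 7.25 to 18.8 CPM (median 14.8) in VIP libraries, against 349 to 466 CPM (median 396) in EXC libraries (log2 fold change -4.79 ± 0.21 SE, adjusted p = 1.63e-15). Lmo4, a LIM-only factor of upper layers, had 11.8 to 18.03 CPM (median 15.4) in VIP libraries, against 108 to 201 CPM (median 145) in EXC libraries (log2 fold change -3.28 ± 0.21 SE, adjusted p = 2.04e-12). Foxp2, a forkhead factor of deep layers, had 0 to 1.38 CPM (median 0.946) in VIP libraries, against 24.2 to 83.8 CPM (median 38.7) in EXC libraries (log2 fold change -5.36 ± 0.42 SE, adjusted p = 6.93e-11). Fezf2, a selector of subcerebral neurons, had 0 to 1.29 CPM (median 0.0666) in VIP libraries, against 2.12 to 35.3 CPM (median 17.8) in EXC libraries. In EXC replicate 3 Fezf2 was at 2.12 CPM, and its call was lost with the pool covariate (-1.75, adjusted p = 0.318). The 2 layer markers higher in VIP were Syt6, a synaptotagmin (1.66 ± 0.36), and Cux2, a factor of upper layers and of some interneurons (0.69 ± 0.20).

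Genes of dentate granule cells were found in every EXC library, although the labels name cortex only. Of 13 such genes, 11 were lower in VIP and 1 was higher, with a median of -5.42, and the pool covariate left the same counts. Their summed level was 1404 to 1465 CPM in VIP libraries, most of it Prox1, and 2222 to 2916 CPM in EXC libraries. The list includes Lct, C1ql2 and Dsp, named above for their large changes, and was chosen with earlier results of these data known. Its counts and median are therefore a description. Calb1, calbindin, had 1.92 to 8.10 CPM (median 2.81) in VIP libraries, against 108 to 183 CPM (median 136) in EXC libraries (log2 fold change -5.30 ± 0.30 SE, adjusted p = 1.48e-13). Pdyn, prodynorphin, had 0 to 0.8 CPM (median 0.472) in VIP libraries, against 13.1 to 53.98 CPM (median 44.3) in EXC libraries (log2 fold change -6.29 ± 0.51 SE, adjusted p = 1.08e-10). Stxbp6, amisyn, had 12.3 to 38.6 CPM (median 36.3) in VIP libraries, against 397 to 814 CPM (median 505) in EXC libraries (log2 fold change -4.12 ± 0.24 SE, adjusted p = 2.69e-13). Each of these was above all VIP libraries in all 6 EXC libraries, replicate 3 included. Smoc2, a matrix protein, and Tdo2, a tryptophan dioxygenase that granule cells express, differed by -7.42 ± 0.62 and -5.84 ± 0.47. Sema5b, a semaphorin, was the 1 gene of the list higher in VIP (91.5 to 212 CPM (median 107) in VIP libraries, against 11.4 to 47.7 CPM (median 23.8) in EXC libraries). Of 4 tested genes of hippocampal pyramidal cells, 3 were lower in VIP, led by Wfs1, wolframin (-3.21 ± 0.33), and 1 was higher, the adhesion gene Nectin3 (1.79 ± 0.36). With the pool covariate 1 was called lower and 1 higher. Which region and how many cells of it the EXC sort drew on was not tested, and fewer cells of a type and less RNA per cell cannot be told apart in bulk samples.

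**Figure D3:**
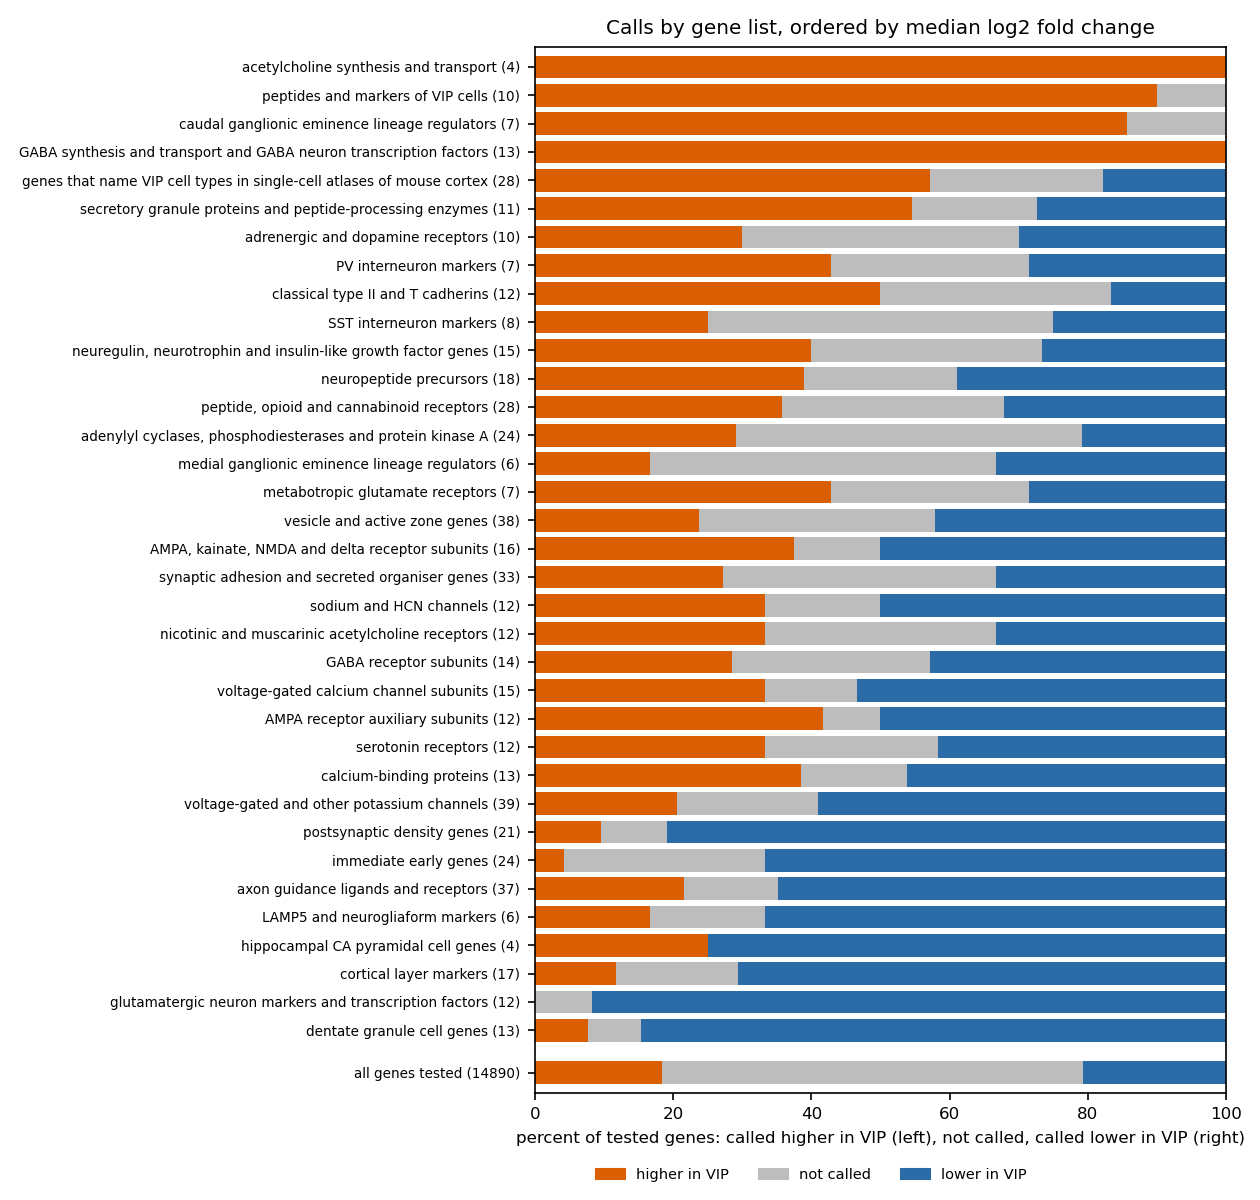
Share of tested genes called higher in VIP (orange), called lower (blue) or not called (grey) in 35 gene lists, with the number tested beside each name. Bars at the top are the lists with the highest median log2 fold change, led by acetylcholine synthesis and transport, and bars at the bottom those with the lowest, ending with dentate granule cell genes at -5.42; all genes tested are drawn as a separate bar.

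Of 18 neuropeptide precursors tested, 7 were called higher and 7 lower (pool covariate: 6 higher and 3 lower, median 0.51 against -0.013). Penk, proenkephalin, had 382 to 629.9 CPM (median 510.0) in VIP libraries, against 36.2 to 61.4 CPM (median 48.1) in EXC libraries (log2 fold change 3.50 ± 0.33 SE, adjusted p = 2.45e-09). Pnoc, prepronociceptin, had 19.6 to 52.4 CPM (median 34.9) in VIP libraries, against 0.252 to 8.20 CPM (median 2.14) in EXC libraries (log2 fold change 3.55 ± 0.49 SE, adjusted p = 1.56e-06). Edn3, endothelin 3, had 7.05 to 18.7 CPM (median 16.6) in VIP libraries, against 0 to 5.04 CPM (median 1.06) in EXC libraries (log2 fold change 3.26 ± 0.70 SE, adjusted p = 5.44e-04; pool covariate, adjusted p = 0.0971). These followed Vip, Tac2 and Crh in being separate between the groups. Adcyap1, the precursor of the VIP relative PACAP, ran opposite to Vip, with 0 to 0.503 CPM (median 0.19) in VIP libraries, against 3.75 to 14.9 CPM (median 7.34) in EXC libraries (log2 fold change -5.29 ± 0.65 SE, adjusted p = 2.22e-07). Npy, neuropeptide Y, had 23.1 to 82.6 CPM (median 46.98) in VIP libraries, against 24.3 to 70.6 CPM (median 27.5) in EXC libraries, which overlapped (adjusted p = 0.423). Avp, Oxt, Hcrt and Gal had a median of 0 in both groups.

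Among secretory granule proteins and processing enzymes, 6 of 11 were called higher and 3 lower, with a median of 0.77, while the pool covariate gave 9 higher and 0 lower, with a median of 1.74. Pcsk1, a prohormone convertase, had 106 to 269.6 CPM (median 157) in VIP libraries, against 14.9 to 46.5 CPM (median 30.3) in EXC libraries (log2 fold change 2.42 ± 0.31 SE, adjusted p = 5.08e-07). Pam, which amidates peptides such as VIP, had 300.1 to 331 CPM (median 316) in VIP libraries, against 67.7 to 107 CPM (median 91.5) in EXC libraries (log2 fold change 1.79 ± 0.12 SE, adjusted p = 2.83e-12). Both were higher in each VIP library and with the pool covariate (1.92 and 1.93). Cpe, carboxypeptidase E, had 419 to 639.8 CPM (median 520.2) in VIP libraries, against 171 to 1735 CPM (median 944) in EXC libraries. EXC replicate 3 was at 171 CPM, below all VIP libraries, and the other EXC libraries were above most of them. The difference was -0.95 ± 0.32 (adjusted p = 0.0215), and 1.74 with the pool covariate (adjusted p = 0.00688). Without VIP replicate 5, EXC replicate 5 or EXC replicate 6 its call was lost (adjusted p = 0.0512, 0.0661 and 0.0801). Chgb, chromogranin B, differed by -1.39 ± 0.25, and by 0.77 with the pool covariate (adjusted p = 0.0434).

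All 4 genes of acetylcholine synthesis, transport and breakdown were called higher in VIP, with the pool covariate too. Slc5a7, the high-affinity choline transporter, had 89.7 to 197 CPM (median 142) in VIP libraries and 0 to 0.211 CPM (median 0) in EXC libraries. Reads summed to 5533 in VIP and 2 in EXC libraries, a ratio of 3011 (833 to 24870.0). Chat, choline acetyltransferase, had 11.02 to 23.6 CPM (median 14.8) in VIP libraries, against 0 to 1.06 CPM (median 0) in EXC libraries. Slc18a3, the vesicular acetylcholine transporter, had 6.99 to 21.7 CPM (median 16.2) in VIP libraries and 0 reads in EXC libraries, which makes it at least 224-fold higher on the floor of 3 counts over the group. Slc18a3 lies within the Chat locus, and no source used here gives the strand setting of the counting, so reads of the 2 genes may be shared. Against the mean of PV and SST, Slc5a7 differed by 7.29 ± 0.33 and Chat by 9.59 ± 0.74. Ache, acetylcholinesterase, had 18.3 to 55.4 CPM (median 30.02) in VIP libraries, against 2.52 to 7.82 CPM (median 5.32) in EXC libraries (log2 fold change 2.57 ± 0.30 SE, adjusted p = 1.01e-07). Its difference from PV and SST was 0.52 ± 0.24 (adjusted p = 0.0822), which missed the threshold.

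Receptors for neuromodulators were called in both directions. Of 12 serotonin receptor genes tested, 4 were called higher and 5 lower (pool covariate: 5 higher and 3 lower). Htr3a, the ionotropic receptor that defines this interneuron family, had 85.5 to 188 CPM (median 126) in VIP libraries, against 0.108 to 1.72 CPM (median 1.37) in EXC libraries, a ratio of 123 (91.9 to 168). Htr2c, coupled to phospholipase C, had 183 to 252 CPM (median 227) in VIP libraries, against 8.04 to 34.4 CPM (median 23.98) in EXC libraries (log2 fold change 3.34 ± 0.29 SE, adjusted p = 3.54e-10). Htr1a, an inhibitory receptor, had 7.38 to 14.3 CPM (median 8.22) in VIP libraries, against 31.7 to 53.97 CPM (median 43.2) in EXC libraries (log2 fold change -2.26 ± 0.23 SE, adjusted p = 1.17e-08). Htr7, coupled to cyclic AMP, was higher at 3.17 ± 0.37. Htr3b, the partner subunit of Htr3a, had a median of 0 in both groups. Htr2a differed by -1.03 ± 0.33, and by 2.10 with the pool covariate (adjusted p = 0.0125); its call was lost without EXC replicate 2 (adjusted p = 0.0624).

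Among acetylcholine receptors, 4 of 12 were higher and 4 lower (pool covariate: 5 higher and 2 lower). Chrna4, a subunit of the high-affinity nicotinic receptor, had 128 to 209 CPM (median 169) in VIP libraries, against 9.31 to 44.3 CPM (median 39.7) in EXC libraries (log2 fold change 2.28 ± 0.26 SE, adjusted p = 6.64e-08). Chrna5, its accessory subunit, had 30.8 to 39.95 CPM (median 33.5) in VIP libraries, against 0.511 to 3.44 CPM (median 1.25) in EXC libraries (log2 fold change 4.24 ± 0.47 SE, adjusted p = 3.52e-08). Chrm3, a muscarinic receptor coupled to phospholipase C, had 64.8 to 169.7 CPM (median 117) in VIP libraries, against 10.3 to 57.8 CPM (median 25.4) in EXC libraries (log2 fold change 2.09 ± 0.35 SE, adjusted p = 2.77e-05). The nicotinic subunits were above all EXC libraries in each VIP library, and both were also higher than the mean of PV and SST (2.29 ± 0.21 and 5.72 ± 0.41). Chrm1, the muscarinic receptor of pyramidal cells, had 31.9 to 73.04 CPM (median 43.9) in VIP libraries, against 112 to 268 CPM (median 242) in EXC libraries (log2 fold change -2.17 ± 0.24 SE, adjusted p = 4.11e-08). The pool covariate took its p to 0.0597. Chrm4, an inhibitory muscarinic receptor, was lower at -2.93 ± 0.43 (pool covariate, adjusted p = 0.306).

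Of adrenergic and dopamine receptors, 3 of 10 tested were higher and 3 lower (pool covariate: 6 higher and 2 lower, median 3.31 against 0.51). Adra1b, an alpha-1 adrenergic receptor, had 99.3 to 250.3 CPM (median 145) in VIP libraries, against 1.06 to 7.44 CPM (median 4.99) in EXC libraries (log2 fold change 4.91 ± 0.35 SE, adjusted p = 1.04e-11). Adra1a had 54.2 to 94.2 CPM (median 68.2) in VIP libraries, against 0.211 to 17.2 CPM (median 5.84) in EXC libraries (log2 fold change 3.39 ± 0.40 SE, adjusted p = 1.03e-07). Their relative Adra1d ran the other way with 1.33 to 4.31 CPM (median 2.53) in VIP libraries, against 15.2 to 56.4 CPM (median 38.1) in EXC libraries (log2 fold change -3.87 ± 0.37 SE, adjusted p = 3.33e-09). The 3 alpha-1 receptors thus separated the groups in opposite directions. Drd5, a dopamine receptor coupled to cyclic AMP, had 0 to 0.783 CPM (median 0.092) in VIP libraries, against 6.13 to 21.8 CPM (median 17.6) in EXC libraries (log2 fold change -6.24 ± 0.62 SE, adjusted p = 5.78e-09).

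Peptide, opioid and cannabinoid receptors gave 10 higher and 9 lower of 28 (pool covariate: 10 higher and 4 lower, median 2.05 against -0.021). Grpr, the receptor of gastrin-releasing peptide, had 272 to 552 CPM (median 336) in VIP libraries, against 0 to 4.02 CPM (median 0.412) in EXC libraries, a ratio of 491 (349 to 713). Hcrtr2, an orexin receptor, had 30.9 to 114 CPM (median 66.2) in VIP libraries, against 2.27 to 7.61 CPM (median 3.04) in EXC libraries (log2 fold change 4.37 ± 0.45 SE, adjusted p = 9.87e-09). The neuropeptide Y receptors Npy1r, Npy2r and Npy5r were higher at 1.46 ± 0.25, 1.65 ± 0.30 and 1.78 ± 0.30, and against the mean of PV and SST they differed by 5.96 ± 0.25, 4.15 ± 0.26 and 3.94 ± 0.28. Rxfp1, a relaxin receptor, differed by 2.40 ± 0.36. Oprm1, the mu opioid receptor, had 25.9 to 33.8 CPM (median 28.4) in VIP libraries, against 6.94 to 10.8 CPM (median 9.18) in EXC libraries (log2 fold change 1.61 ± 0.24 SE, adjusted p = 5.15e-06; pool covariate, adjusted p = 0.0615). Oprd1, the delta opioid receptor, had 0 to 0.754 CPM (median 0) in VIP libraries, against 10.8 to 19.3 CPM (median 13.1) in EXC libraries, an EXC-to-VIP ratio of 70.2 (35.4 to 163). Oprm1 and Oprd1 thus separated in opposite directions. Cckbr, the brain receptor of cholecystokinin, had 0 to 1.51 CPM (median 0) in VIP libraries, against 4.23 to 26.1 CPM (median 20.04) in EXC libraries (log2 fold change -5.48 ± 0.56 SE, adjusted p = 9.56e-09). Sstr3, a somatostatin receptor, was lower at -4.71 ± 0.44. The VIP receptors were low: Vipr1 had 1.999 to 9.57 CPM (median 3.70) in VIP libraries, against 6.18 to 15.7 CPM (median 8.61) in EXC libraries, with adjusted p = 0.0653, and Vipr2 had 0.392 to 2.58 CPM (median 1.58) in VIP libraries, against 0 to 0.521 CPM (median 0.232) in EXC libraries and was below the filter. Vipr1 was called lower without VIP replicate 2, VIP replicate 5 or EXC replicate 6 (adjusted p = 0.0442, 0.0405 and 0.0478). Adcyap1r1, the PACAP receptor, had 228 to 522 CPM (median 298) in VIP libraries, against 217 to 399 CPM (median 308) in EXC libraries, with overlapping groups and adjusted p = 0.916.

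**Figure D4:**
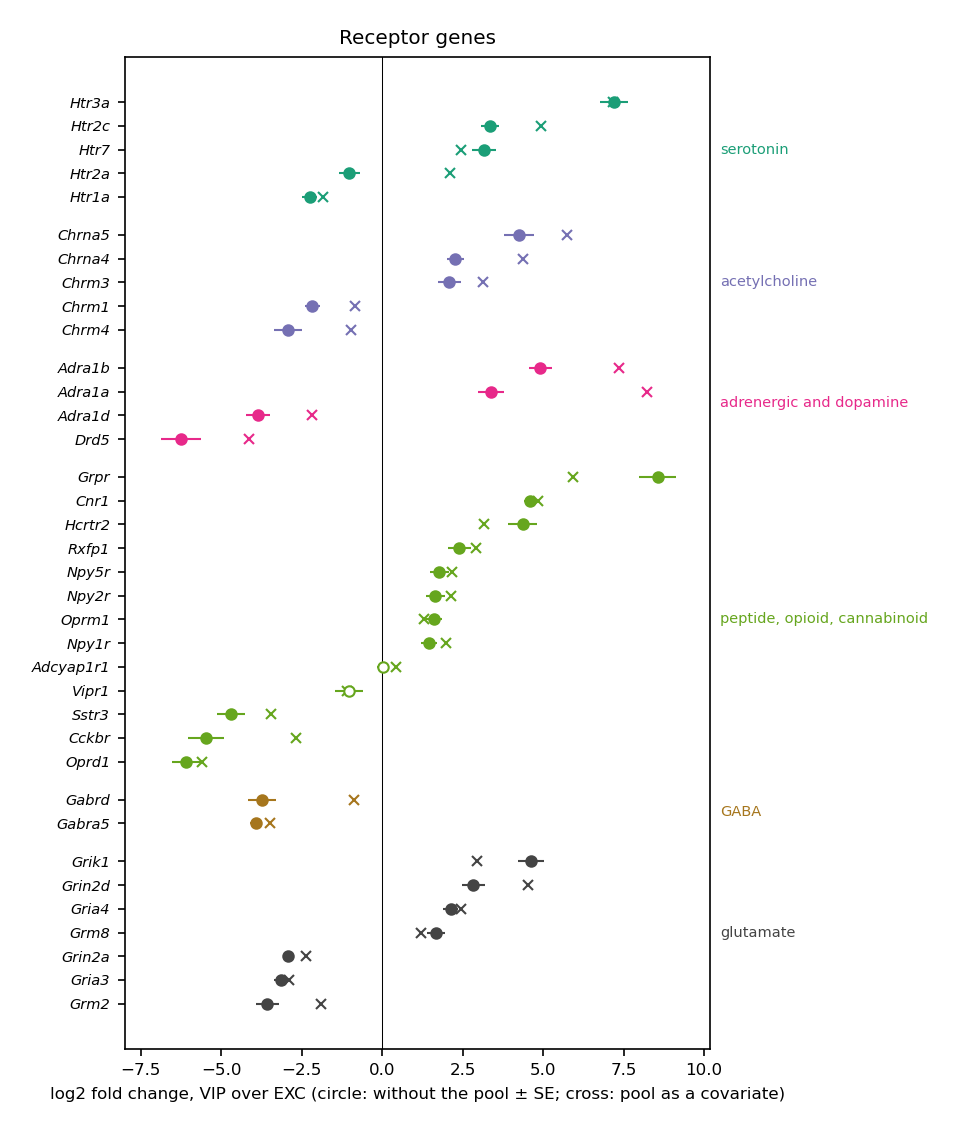
Log2 fold change of VIP over EXC ± SE for the receptor genes named in the text (x axis), grouped by transmitter, with filled circles for called genes and open circles for the rest, and a cross at the value with the pool as a covariate. Grpr, Htr3a and Adra1b lie farthest to the right and Drd5, Oprd1 and Cckbr farthest to the left.

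GABA and glutamate receptor subunits were called in both directions. Of 14 GABA receptor subunits, 4 were higher and 6 lower (pool covariate: 3 higher and 2 lower). Gabra5, a subunit of extrasynaptic receptors, had 11.9 to 22.5 CPM (median 13.7) in VIP libraries, against 187 to 276 CPM (median 227) in EXC libraries (log2 fold change -3.92 ± 0.20 SE, adjusted p = 1.43e-14). Gabrd, of the receptors that carry tonic inhibition in granule cells, had 0.196 to 3.59 CPM (median 2.42) in VIP libraries, against 4.44 to 37.5 CPM (median 29.9) in EXC libraries (log2 fold change -3.73 ± 0.43 SE, adjusted p = 7.02e-08). The Gabrd call was lost with the pool covariate (adjusted p = 0.356). Of 16 ionotropic glutamate receptor subunits, 6 were higher and 8 lower (pool covariate: 3 higher and 5 lower). Grik1, a kainate receptor subunit, had 43.8 to 113 CPM (median 66.4) in VIP libraries, against 0.926 to 9.10 CPM (median 1.78) in EXC libraries (log2 fold change 4.62 ± 0.40 SE, adjusted p = 4.97e-10). Gria4, an AMPA subunit of interneurons, and Grin2d, an NMDA subunit of interneurons, were higher at 2.13 ± 0.23 and 2.83 ± 0.37. Gria3 had 28.8 to 89.2 CPM (median 69.2) in VIP libraries, against 382 to 759 CPM (median 534) in EXC libraries (log2 fold change -3.13 ± 0.24 SE, adjusted p = 4.10e-11). Grin2a had 93.02 to 108 CPM (median 100.5) in VIP libraries, against 544 to 909 CPM (median 746) in EXC libraries (log2 fold change -2.91 ± 0.15 SE, adjusted p = 1.78e-14). Among metabotropic receptors, Grm2 was lower at -3.57 ± 0.35 and Grm8 higher at 1.68 ± 0.28, the call of Grm8 being lost with the pool covariate (adjusted p = 0.111). Of the AMPA receptor partners, Cnih3, a cornichon, was lower at -3.82 ± 0.24 and Cacng5, a transmembrane regulatory protein, higher at 2.56 ± 0.29.

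Postsynaptic density genes were mostly lower. Of 21, 17 were lower and 2 higher, with a median of -0.98, and with the pool as a covariate 8 were lower and 0 higher. Nrgn, neurogranin, a calmodulin-binding protein of spines, had 0.583 to 17.7 CPM (median 2.19) in VIP libraries, against 63.7 to 443 CPM (median 380.1) in EXC libraries (log2 fold change -6.10 ± 0.58 SE, adjusted p = 2.48e-09). Its lowest EXC value, 63.7 CPM, was in replicate 3. Kalrn, kalirin, a guanine nucleotide exchange factor of spines, had 146 to 231 CPM (median 186) in VIP libraries, against 994 to 1243 CPM (median 1104) in EXC libraries (log2 fold change -2.49 ± 0.13 SE, adjusted p = 1.78e-14). Camk2a had 326 to 897 CPM (median 439.6) in VIP libraries, against 1309 to 3967 CPM (median 2804) in EXC libraries (log2 fold change -2.39 ± 0.29 SE, adjusted p = 1.51e-07). The Kalrn call held with the pool covariate (-2.48, adjusted p = 3.91e-09), and that of Camk2a did not (-0.92, adjusted p = 0.0866). Homer2 and Dlg2, a scaffold each, were the 2 called higher (1.33 ± 0.25 and 0.54 ± 0.13), and neither was called with the pool covariate (adjusted p = 0.244 and 0.466).

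Of 39 potassium channel genes, 23 were lower and 8 higher (pool covariate: 9 higher and 14 lower). The higher ones were led by Kcnip1, a subunit that shapes A-type current, with 108 to 199.9 CPM (median 161) in VIP libraries, against 0.926 to 14.3 CPM (median 3.79) in EXC libraries (log2 fold change 4.84 ± 0.37 SE, adjusted p = 3.28e-11). Kcnc2, a Kv3 channel of interneurons, had 164 to 289 CPM (median 225) in VIP libraries, against 23.1 to 37.2 CPM (median 31.4) in EXC libraries (log2 fold change 2.89 ± 0.19 SE, adjusted p = 1.50e-12). Kcnc4, of the same family, had 5.83 to 9.68 CPM (median 7.39) in VIP libraries, against 51.2 to 75.9 CPM (median 69.4) in EXC libraries (log2 fold change -3.14 ± 0.23 SE, adjusted p = 1.64e-11). Kcnt2, a sodium-activated channel, differed by 2.28 ± 0.31, and by 5.32 ± 0.27 from the mean of PV and SST; against EXC it was not called with the pool covariate (adjusted p = 0.0687). Of 12 sodium and HCN channel genes, 4 were higher and 6 lower (pool covariate: 4 higher and 2 lower). Scn1a had 268 to 488 CPM (median 399) in VIP libraries, against 78.3 to 192 CPM (median 105) in EXC libraries (log2 fold change 1.76 ± 0.21 SE, adjusted p = 1.53e-07; pool covariate, adjusted p = 0.0757). Scn8a, another pore-forming subunit, differed by -1.47 ± 0.15 and Scn2a by 0.11 ± 0.20 (adjusted p = 0.681). Of 15 calcium channel genes, 5 were higher and 8 lower (pool covariate: 4 higher and 5 lower), with Cacna1e, the R-type channel, at -2.43 ± 0.15 and Cacna1g, a T-type channel, at 1.59 ± 0.26. Among calcium-binding proteins, Vsnl1 and Necab1 were higher (1.46 ± 0.21 and 2.30 ± 0.21) and Hpca, hippocalcin, was lower (-3.29 ± 0.36).

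Of 38 vesicle and active zone genes, 9 were higher and 16 lower, with a median of -0.27, and the pool covariate gave 13 higher and 6 lower, with a median of 0.66. Rims3, of the active zone, had 67.6 to 149 CPM (median 91.8) in VIP libraries, against 11.8 to 19.8 CPM (median 17.97) in EXC libraries (log2 fold change 2.49 ± 0.21 SE, adjusted p = 2.17e-10). Rab3b, a vesicle GTPase, had 41.6 to 121 CPM (median 68.7) in VIP libraries, against 5.08 to 24.9 CPM (median 14.99) in EXC libraries (log2 fold change 2.16 ± 0.28 SE, adjusted p = 5.88e-07). Syt7, a synaptotagmin of slow release, had 49.1 to 78.7 CPM (median 58.4) in VIP libraries, against 315 to 465 CPM (median 416) in EXC libraries (log2 fold change -2.74 ± 0.15 SE, adjusted p = 7.97e-14). These 3 kept their calls with the pool covariate (3.15, 3.89 and -2.59). Snap25, a SNARE protein, had 2685 to 3835 CPM (median 3006) in VIP libraries, against 2933 to 6670.0 CPM (median 6244) in EXC libraries. EXC replicate 3 was at 2933 CPM, within the VIP range, and the difference of -0.90 ± 0.17 became 0.05 with the pool covariate (adjusted p = 0.913). Vamp2 had 821 to 1247 CPM (median 984) in VIP libraries, against 711 to 1084 CPM (median 1021) in EXC libraries, with adjusted p = 0.904.

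Synaptic organisers were called in both directions: of 33 tested, 9 were higher and 11 lower (pool covariate: 13 higher and 5 lower, median 0.81 against -0.28). Cbln2, a cerebellin, had 234 to 303 CPM (median 254) in VIP libraries, against 4.26 to 11.2 CPM (median 7.83) in EXC libraries (log2 fold change 5.05 ± 0.25 SE, adjusted p = 1.31e-14). C1ql3, a C1q-like protein that, like the cerebellins, is secreted into the cleft, had 2.74 to 13.6 CPM (median 8.16) in VIP libraries, against 593 to 996 CPM (median 828) in EXC libraries (log2 fold change -6.56 ± 0.42 SE, adjusted p = 1.11e-12). Nrxn3, a neurexin, had 1537 to 2199 CPM (median 1681) in VIP libraries, against 222 to 318 CPM (median 258) in EXC libraries (log2 fold change 2.78 ± 0.14 SE, adjusted p = 2.21e-14), and Nrxn2, its relative, differed by 0.36 ± 0.26 (adjusted p = 0.295; pool covariate 2.16, adjusted p = 4.80e-04). Ptprd, a receptor phosphatase of presynaptic terminals, differed by 2.81 ± 0.23. Of 12 cadherins, 6 were higher and 2 lower (pool covariate: 6 higher and 1 lower). Cdh7 had 59.3 to 183 CPM (median 122) in VIP libraries, against 2.04 to 12.03 CPM (median 9.28) in EXC libraries (log2 fold change 3.91 ± 0.35 SE, adjusted p = 1.01e-09). Cdh9 had 9.05 to 19.6 CPM (median 13.6) in VIP libraries, against 111 to 186 CPM (median 122) in EXC libraries (log2 fold change -3.13 ± 0.19 SE, adjusted p = 7.39e-13).

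Of 37 axon guidance genes, 24 were lower and 8 higher, with a median of -1.27, and with the pool as a covariate 19 were lower and 9 higher. Slit3, a repellent ligand, had 1.80 to 5.15 CPM (median 3.41) in VIP libraries, against 126 to 174 CPM (median 149) in EXC libraries (log2 fold change -5.33 ± 0.26 SE, adjusted p = 1.01e-14), and Slit2 had 1.26 to 4.26 CPM (median 2.27) in VIP libraries, against 24.3 to 147 CPM (median 41.5) in EXC libraries (log2 fold change -4.63 ± 0.39 SE, adjusted p = 2.25e-10). Among the Robo receptors, Robo1 and Robo2 were higher (1.59 ± 0.14 and 1.15 ± 0.17), opposite to Robo3. Ntng1, netrin-G1, had 2.94 to 4.66 CPM (median 4.36) in VIP libraries, against 94.5 to 135 CPM (median 106) in EXC libraries (log2 fold change -4.70 ± 0.16 SE, adjusted p = 9.97e-18). Epha4, an ephrin receptor, had 60.7 to 96.9 CPM (median 80.7) in VIP libraries, against 382 to 929 CPM (median 770.2) in EXC libraries (log2 fold change -3.22 ± 0.19 SE, adjusted p = 3.62e-13). Sema3c, a secreted semaphorin, was the gene of the list with the largest positive change, with 135 to 349.6 CPM (median 308) in VIP libraries, against 4.10 to 10.4 CPM (median 8.98) in EXC libraries (log2 fold change 5.07 ± 0.29 SE, adjusted p = 1.73e-13).

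Of 15 growth factor genes tested, 6 were higher and 4 lower (pool covariate: 6 higher and 3 lower). Bdnf, brain-derived neurotrophic factor, had 0 to 2.58 CPM (median 0.322) in VIP libraries, against 53.6 to 135 CPM (median 67.5) in EXC libraries, an EXC-to-VIP ratio of 136 (90.3 to 214). Ntf3, neurotrophin 3, had 1 read in all VIP libraries together and 3.04 to 10.9 CPM (median 7) in EXC libraries, an EXC-to-VIP ratio of 275 (48.9 to 10890.0). The receptor of Bdnf, Ntrk2, was higher in VIP at 1.19 ± 0.18, and Nrg1, a ligand of Erbb4, was lower at -2.40 ± 0.28. Of 24 genes of cyclic AMP signalling, 7 were higher and 5 lower (pool covariate: 9 higher and 2 lower). That is 50.0% called, against 39.1% of all genes. Pde1c, a phosphodiesterase, had 61.3 to 84.5 CPM (median 72.4) in VIP libraries, against 1.27 to 8.33 CPM (median 6.05) in EXC libraries (log2 fold change 3.83 ± 0.33 SE, adjusted p = 4.56e-10), opposite to its relative Pde1a. Adcy1, an adenylyl cyclase stimulated by calcium, had 199.6 to 267 CPM (median 232) in VIP libraries, against 771 to 1976 CPM (median 1427) in EXC libraries (log2 fold change -2.59 ± 0.19 SE, adjusted p = 1.56e-11).

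Immediate early genes, which neurons transcribe on activity or stress, were lower for 16 of 24 and higher for 1, with a median of -1.22. With the pool as a covariate 5 were lower and 1 was higher. Jun had 5.15 to 13.5 CPM (median 7.78) in VIP libraries, against 48.01 to 156 CPM (median 133) in EXC libraries (log2 fold change -3.93 ± 0.25 SE, adjusted p = 1.51e-12). Egr3 had 4.40 to 32.6 CPM (median 16.8) in VIP libraries, against 226 to 408 CPM (median 279.8) in EXC libraries (log2 fold change -4.12 ± 0.39 SE, adjusted p = 2.74e-09). Arc, of the spine cytoskeleton, had 0.666 to 5.48 CPM (median 1.99) in VIP libraries, against 17.3 to 114 CPM (median 48.5) in EXC libraries (log2 fold change -4.02 ± 0.57 SE, adjusted p = 2.33e-06). The calls of Jun and Egr3 held with the pool covariate, and that of Arc did not (adjusted p = 0.11). Fos was the 1 called higher, with 18.2 to 40.7 CPM (median 36.3) in VIP libraries, against 5.28 to 16.2 CPM (median 10.03) in EXC libraries (log2 fold change 1.97 ± 0.32 SE, adjusted p = 1.87e-05). Npas4, a factor induced by depolarisation, had 14.4 to 82.6 CPM (median 31.8) in VIP libraries, against 8.51 to 32.4 CPM (median 16.9) in EXC libraries, with adjusted p = 0.0961. It was called higher without VIP replicate 1, VIP replicate 5 or EXC replicate 3 (adjusted p = 0.0255, 0.0433 and 0.027). Cell dissociation is known to induce such genes, and its part in these values was not tested.

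Markers of cells other than the sorted neurons differed widely between libraries. Of 7 tested oligodendrocyte markers, 5 were lower in VIP. Their summed level was 59.7 to 741 CPM in VIP libraries and 85.0 to 2987 CPM in EXC libraries, with EXC replicates 2 and 6 highest and VIP replicate 5 the highest of its group. The glutamatergic sums of EXC replicates 2 and 6 were 3517 and 3825 CPM. With the pool covariate 0 oligodendrocyte markers were called lower and 1 higher, and their median was 1.83, against -2.01 without it. Astrocyte markers summed to 1129 to 1651 CPM in VIP and 501 to 4267 CPM in EXC libraries, most of it Slc1a2, a glutamate transporter that neurons also transcribe. Of 10 of them, 4 were lower (pool covariate: 1 higher and 0 lower). Microglia markers summed to 52.4 to 99.5 CPM in VIP and 46.9 to 301 CPM in EXC libraries, endothelial markers to 2.14 to 19.9 and 17.0 to 194 CPM, and mural and leptomeningeal markers to 12.1 to 64.4 and 45.7 to 194 CPM. Called lower in VIP were 4 of 10, 1 of 4 and 4 of 10 markers of these lists, and with the pool covariate 0, 0 and 2. Striatal projection neuron markers summed to 30.3 to 51.2 CPM in VIP and 38.6 to 79.2 CPM in EXC libraries, with 2 of 6 lower (pool covariate: 1 higher and 1 lower). None of 4 ependymal and choroid plexus markers was called, and 1 was called lower with the pool covariate. Pdgfra, the marker of oligodendrocyte precursors, ran the other way with 12.7 to 19.6 CPM (median 15.5) in VIP libraries, against 0 to 2.02 CPM (median 0.516) in EXC libraries (log2 fold change 4.46 ± 0.66 SE, adjusted p = 4.37e-06). Cspg4, the other precursor marker, had medians of 0.286 and 0.914 CPM in VIP and EXC libraries. The part of these cells in the differences above was not tested.

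**Figure D5:**
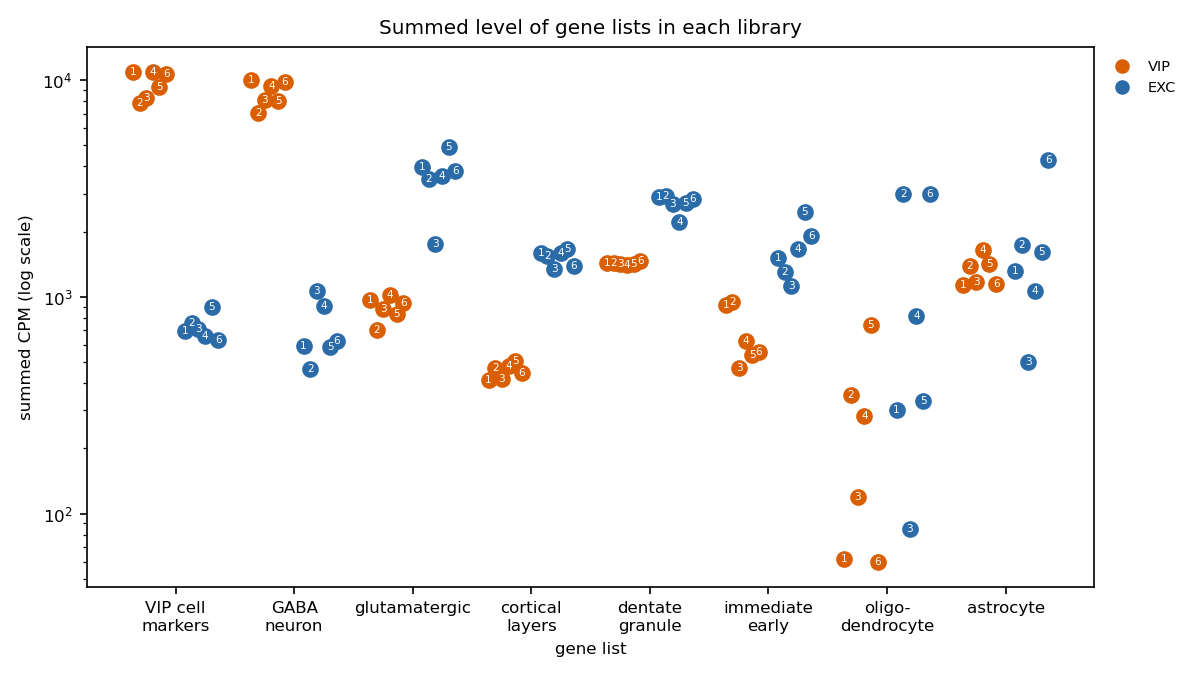
Summed CPM per library (log axis) of 8 gene lists, VIP libraries in orange left of EXC libraries in blue, with replicate numbers inside the points. EXC replicate 3 has the lowest glutamatergic sum of its group and EXC replicates 2 and 6 the highest oligodendrocyte sums; the dentate sums lie at 1404 to 1465 in VIP and 2222 to 2916 in EXC.

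The dependence of the VIP and EXC difference on sex was tested by interaction. In the interaction of subtype and sex, 0 of 14890 genes were called by edgeR (smallest adjusted p = 0.106), with 359 genes (2.41%) at an unadjusted p under 0.05. DESeq2 called 1 gene, Dusp1, an immediate early phosphatase (adjusted p = 4.82e-05). The EXC arm of this contrast has 2 female libraries and the VIP arm 2 male ones.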

How the data were processed

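Bulk RNA-seq of FACS-sorted neurons was deposited as 1 table per library with 2 value columns. The counts are whole reads per gene, deposited unnormalised per the file headers, and the RPKM column (nRPKM) holds values that the authors adjusted for gene length and a size factor per library. Over 7268 genes RPKM equalled the count over 1 factor per gene and 1 per library. The submitters' processing notes name GSNAP and GRCm38, without versions; the strand setting and annotation are not stated there. Genes were listed by NCBI Gene number for 36528 genes, of which 31126 were given a symbol from reference tables.

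The main test was edgeR 4.0.16 (limma 3.58.1, R 4.3.3): all 24 libraries, subtype and sex as terms, TMM scaling, filterByExpr by subtype, quasi-likelihood F test and Benjamini-Hochberg adjustment over all genes tested, called at 0.05. Replicates were numbered in accession order and pair no samples. No pair of VIP or of EXC libraries agreed within sampling noise (30 pairs, lowest chi-square per degree of freedom 10.6). The script was tested on simulated data. Alternatives were DESeq2 1.42.0, other scalings, filters and terms, the pool as a covariate, subsets of libraries and leaving out each library. Genes named were the 15 largest changes in each direction among called genes with a mean of 10 CPM or more in the higher group, no overlap, and a symbol that is not of a predicted gene, plus Vip, Slc17a7, Gad1, Gad2 and members of 43 gene lists, not all of which are described. Of the genes named, Emx1, Vipr2 and Cspg4 did not pass the filter on low counts and were not tested. Members and lists were chosen with earlier results of these data known. Promoters are from the RefSeq table of build GRCm38.p6. Depth sets a counting error of about 15.1% at 10 CPM, taken before TMM scaling, in the shallowest library. Some genes of the lists are not reported here.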

Additional observations from a re-analysis of the deposited data

Results flagged for a closer look

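Within each group of 6 libraries, a library was singled out where its CPM lay apart from the other 5 by a larger share of the group's range than Dixon's 95% critical value. This was so for 35 of the 341 gene and group pairs examined, or 10.3%, where chance gives about 1 in 20 for normally distributed values. CPM of few reads are not so distributed, and the 2 shares are therefore not a test. Where only 1 library of a group had reads, it was singled out by construction. That holds for C1ql2 and Ntf3 in VIP and for Chat in EXC. The pairs share libraries and are not independent.

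VIP replicate 5 stood highest of the VIP libraries for 8 genes: Slc17a7 at 24.1 CPM, Neurod6 at 6.07, Nrgn at 17.7, Wfs1 at 18.8, Sst at 17.7, Col15a1 at 35.5, Bdnf at 2.58 and C1ql2 at 0.184. Elsewhere in the VIP group, replicate 1 was highest for Ntrk2 at 1283 CPM, replicate 2 for Cbln2 at 302.9 and Npas4 at 82.6, replicate 4 for Gabra5 at 22.5 and replicate 6 for Ntf3 at 0.12.

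EXC replicate 3, the library that shares a pool with VIP, was singled out for 11 genes. It was the highest EXC library for Adarb2 at 103.4 CPM, Cdh9 at 185.5, Robo3 at 29.6, Grpr at 4.02 and Chat at 1.06. It was the lowest for Chgb at 162.6 CPM, Cnih3 at 44.8, Chrna4 at 9.31, Drd5 at 6.13, Gabrd at 4.44 and Cckbr at 4.23.

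EXC replicate 5 was highest for Npy2r at 184.2 CPM, Bdnf at 135.1, Foxp2 at 83.8, Gria4 at 74.7, Cacna1g at 52.5 and Cbln4 at 36.4. EXC replicate 6 was highest for Cspg4 at 8.32 CPM, Edn3 at 5.05, Mybpc1 at 2.02, Nectin3 at 39.4 and Cox6a2 at 1.51.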

How the results depend on the processing

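Counts of calls in VIP against EXC, 2735 higher and 3086 lower, stayed within 1.5 times under DESeq2, other scalings, other filters, no sex term, robust empirical Bayes and the female libraries alone. They moved further with the pool as a covariate (1708 lower), with only the 12 VIP and EXC libraries (1791 higher), with the 5 libraries of POOL7099 (1683 higher and 1887 lower) and with the male libraries (1016 higher and 1159 lower). The fits with fewer libraries have fewer degrees of freedom, which also holds for the female libraries that stayed within 1.5 times. The cause of these moves was not tested. Leaving out 1 library gave 2486 to 3888 higher and 2600 to 3403 lower, both highest without EXC replicate 3. In the 5 libraries of POOL7099 the lone EXC library is assumed to vary like the VIP ones. For the difference between female and male libraries DESeq2 called 1 gene higher. No count of VIP against the mean of PV and SST moved by over 1.5 times under DESeq2, other scalings, other filters, no sex term or robust empirical Bayes. The pool covariate, subsets of libraries and leaving out a library were not run for that contrast. No PV library shared a pool with VIP, and mitochondrial genes took 14.4% to 52.9% of reads in PV libraries. How far those differences depend on the pool was therefore not tested. Of 159 called genes among the 170 named with a test, 126 kept call and direction in every alternative that tested them. Without a change of sign, the pool covariate ended the call of 22 named genes and the male libraries of 16. Among these named genes, the sign of the change was reversed for 4. Over all genes tested, 4599 of the 5821 called genes kept their direction with the pool as a covariate. There were 96 genes called both with and without the pool covariate but with opposite signs. With the pool as a covariate Cpe was at 1.74, Chgb at 0.77 and Htr2a at 2.10, each called by the quasi-likelihood test. Snap25 was at 0.053 and not called (adjusted p = 0.913), which is a lost call more than a reversal. In POOL7099 alone, with 1 EXC library, Cpe was at 1.73, Chgb at 0.90, Htr2a at 2.22 and Snap25 at 0.23. These 4 values are given by size only, and no call is read from them. No paired analysis was possible because the replicate numbers follow accession order and no label pairs the libraries. Depth limits the genes under about 10 CPM, and named genes with 1 to 3 reads in 1 group carry ratios of summed reads, and those with 0 a bound, Emx1 excepted.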

Other observations

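The VIP libraries fell into 2 sets by correlation across 11859 genes. Replicates 1, 3 and 6 correlated at 0.96 to 0.976 with one another, replicates 2, 4 and 5 at 0.956 to 0.969, and libraries of different sets at 0.878 to 0.958. Mitochondrial genes took 1.80%, 5.83% and 4.81% of reads in VIP replicates 1, 3 and 6 and 14.6%, 14.2% and 16.6% in replicates 2, 4 and 5, against 3.84% to 9.86% in EXC libraries. Replicates 1 and 3 were in POOL7098 and the other 4 VIP libraries in POOL7099, and each set held 1 male library. These are descriptions of single libraries, and no comparison was made between the sets.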
